A study of Drosophila melanogaster with 6 samples.

Results

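The small heat shock genes and cochaperones of Drosophila melanogaster examined here are 9 genes, Hsp22, Hsp23, Hsp26, Hsp27, Hsp67Ba, Hsp67Bc, Hsp68, DnaJ-1 and stv, chosen by name, with every probe set annotated to them. A probe set is a group of short probes on an Affymetrix array that together report 1 signal. Hsp26, Hsp27, Hsp68, DnaJ-1 and stv each had 1 probe set that names that gene alone. Hsp22 had 2 probe sets, both annotated jointly to Hsp22 and the overlapping gene CG4456, so their signal cannot be assigned to either gene. Hsp23, Hsp67Ba and Hsp67Bc were not analysed here. The 9 genes were thus represented by 7 of the 18769 probe sets tested, and 5 of them were among the 11983 genes with a probe set of their own. The wild type group was 3 samples of the Oregon R laboratory strain, and the other group was 3 samples of sage mutant embryos, which lack normal function of a basic helix-loop-helix transcription factor known from the salivary gland. All embryos were of stages 11 to 16, were kept at 25 °C and passed through a COPAS sorter before extraction, and each RNA sample was hybridised to 1 array. The allele of sage and the genetic background of the mutants are not given in the sources used here. The RNA came from whole embryos, so fewer cells of a type and less RNA per cell cannot be told apart.

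Heat shock proteins are molecular chaperones. Small heat shock proteins share an alpha-crystallin domain and hold unfolding proteins without using ATP, while Hsp70 proteins, which include Hsp68, refold them in ATP-driven cycles. DnaJ-1 encodes an Hsp40 cochaperone that delivers clients to Hsp70 and stimulates its ATPase, and stv (starvin) encodes a BAG-domain cochaperone, the fly relative of BAG3, known from muscle upkeep. Transcription of many of these genes rises within minutes of heat or other protein-damaging stress through the heat shock factor Hsf. Several small heat shock genes, clustered at cytological region 67B on chromosome arm 3L, are also transcribed during normal development, where the moulting hormone ecdysone acts on some of them.

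The arrays were checked before the members were compared. The log2 signal of sage averaged 8.25 ± 0.34 over the wild type arrays and 5.28 ± 0.16 over the mutant arrays (SD, n = 3 each), and was lower in the mutants as labelled (limma adjusted p = 0.00125). Mean signals of the 6 arrays all rounded to 6.80, and medians lay between 5.89 and 6.01. Across probe sets, wild type replicate 2 correlated at 0.977 on average with its own group, and every other array at 0.985 or more, so it stood apart. 5 control transcripts have a 5′ and a 3′ probe set, and the 5′ signal falls when copies are less complete. The 5′ signal minus the 3′ signal, averaged over these pairs, was −1.84 ± 0.08 for wild type and −3.68 ± 0.61 for the mutants (SD, n = 3 each). 7 late embryo markers averaged log2 signals of 9.79 to 10.23 per array and 7 larval glue genes 5.07 to 5.28, and neither list held a probe set past the limma threshold, which 4.03% of all probe sets passed. Of the late embryo markers, however, 4 of 7 had an unadjusted p under 0.05, against 18.7% of all probe sets, and 5 of 7 had groups that did not overlap, against 24.4%. The 4 with an unadjusted p under 0.05 were Ddc, ple and serp, higher in the mutants, and Osi7, lower. Ddc, an enzyme of cuticle tanning, had a log2 difference of 1.53 (SE 0.45), ple of 0.32 (SE 0.10) and serp of 0.37 (SE 0.11). The wild type mean of ple, 4.68, was below every group mean of the glue genes. Osi7, an Osiris family gene, had a log2 difference of −0.78 (SE 0.27). None of the 4 passed (limma adjusted p from 0.133 to 0.184). The part of developmental stage in the member levels was not tested. Of the glue genes, 0 had an unadjusted p under 0.05.

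None of the 7 probe sets passed limma at an adjusted p of 0.05, against 4.03% of all probe sets, and 1 of them, stv, had an unadjusted p under 0.05, against 18.7%. Hsp26, Hsp27 and the brighter Hsp22/CG4456 probe set had higher mean levels in the mutants, but their values overlapped between the groups. stv was the single member probe set whose groups did not overlap, a state found at 24.4% of all probe sets. The replicates of most members lay far apart. The log2 signal of Hsp26 spanned 1.70 across the 3 wild type arrays and 2.17 across the 3 mutant arrays, where the median probe set spanned 0.30 and 0.27. Wide spans in wild type were not particular to the members. The muscle genes bt and sls spanned 3.15 and up to 2.70 in wild type, and 0.88 and up to 0.64 in the mutants.

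Among the small heat shock genes, Hsp26 encodes a cytosolic chaperone that is abundant in ovaries and embryos. The wild type arrays gave log2 signals of 12.30, 10.92 and 12.62 for replicates 1, 2 and 3. The mutant arrays gave 13.92, 13.12 and 11.75 in the same order of replicates, which is used throughout. Mutant replicate 3 thus lay below wild type replicates 1 and 3, while mutant replicates 1 and 2 lay above every wild type array. Wild type averaged 11.95 ± 0.90 and the mutants 12.93 ± 1.10 (SD, n = 3 each), a log2 difference of 0.99 (SE 0.65, limma adjusted p = 0.501) with a 95% interval from −0.56 to 2.53. That difference was 0.47 without wild type replicate 2, 0.49 without mutant replicate 1 and 1.57 without mutant replicate 3.

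Hsp27, a small heat shock protein found in the nucleus, showed the same unevenness. Wild type arrays had log2 signals of 11.19, 10.34 and 11.14, and mutant arrays had 12.83, 11.23 and 10.60. A single array, mutant replicate 1, was 3.03-fold above the next mutant array, mutant replicate 2 lay just above the highest wild type array, and mutant replicate 3 lay inside the wild type range. The log2 difference between groups was 0.66 (SE 0.57, limma adjusted p = 0.626, 95% interval −0.70 to 2.02). Without mutant replicate 1 it was 0.02.

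Hsp22 encodes a mitochondrial small heat shock protein, and CG4456 is the gene that overlaps it. Their brighter shared probe set had log2 signals of 10.55, 9.10 and 10.83 on the wild type arrays and 11.72, 11.19 and 10.17 on the mutant arrays. The order of the arrays was that of Hsp26, with wild type replicate 2 and mutant replicate 3 lowest. The log2 difference was 0.87 (SE 0.56, limma adjusted p = 0.488, 95% interval −0.46 to 2.20). It was 0.34 without wild type replicate 2, 0.52 without mutant replicate 1 and 1.298 without mutant replicate 3. Their dimmer shared probe set had 8.16, 8.96 and 7.95 in wild type and 8.75, 8.25 and 8.02 in the mutants, so wild type replicate 2 was the highest wild type array there and the lowest at the brighter probe set. The dimmer probe set had a log2 difference of −0.02 (SE 0.30, limma adjusted p = 0.985, 95% interval −0.75 to 0.71).

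Hsp68 is a stress-inducible member of the Hsp70 family. Log2 signals of 9.80, 8.71 and 10.22 were found on the wild type arrays and of 10.32, 10.01 and 8.74 on the mutant arrays. The lowest arrays of the groups were level with each other, and so were the highest, so the groups overlapped almost fully. The log2 difference was 0.11 (SE 0.52, limma adjusted p = 0.945), and its 95% interval from −1.14 to 1.36 leaves room for a change of more than 2-fold either way.

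The cochaperones differed less between replicates than Hsp26 did. DnaJ-1 had log2 signals of 11.97, 11.45 and 12.21 on the wild type arrays and 12.20, 11.67 and 11.07 on the mutant arrays. Its mean was slightly lower in the mutants, unlike those of Hsp26 and Hsp27, and the log2 difference was −0.23 (SE 0.32, limma adjusted p = 0.786, 95% interval −0.99 to 0.53). stv had 9.13, 8.46 and 9.24 in wild type and 10.26, 9.53 and 9.43 in the mutants. Every mutant array was above every wild type array, by 0.19 at the closest pair, mutant replicate 3 and wild type replicate 3. The log2 difference of stv was 0.80 (SE 0.29), a 1.74-fold higher level in the mutants, and its limma adjusted p of 0.208 did not pass the threshold. Leaving out each array in turn gave log2 differences of 0.54 to 0.95 for stv and adjusted p-values from 0.217 to 0.346.

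**Figure D1:**
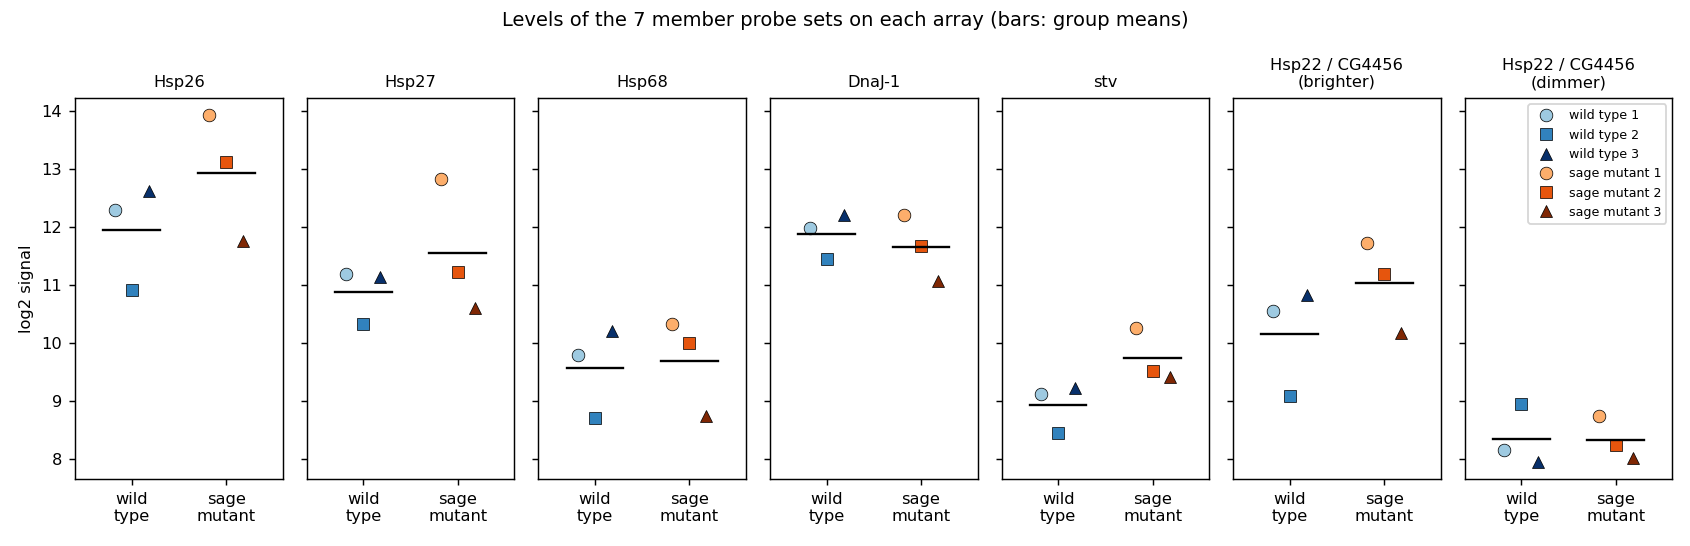
Log2 signal of the 7 member probe sets on each of the 6 arrays, with 1 panel per probe set, 1 point per array and a bar at each group mean. Mutant replicate 1 is the highest mutant array in every panel, wild type replicate 2 is the lowest wild type array in 6 of 7, and only the stv groups do not overlap.

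Set beside the rest of the array, 5 of the 7 probe sets (71.4%) had a higher mean in the mutants, against 43.4% of all probe sets, and their median log2 difference was 0.66 against −0.03. Leaving out mutant replicate 1 brought that median to 0.025, leaving out wild type replicate 2 brought it to 0.34, and leaving out mutant replicate 3 raised it to 0.95. These 7 values are not 7 independent observations, because the same arrays were high or low for nearly all of them. The members' standard errors lay between 0.29 and 0.65 with a median of 0.52, where the median over all probe sets was 0.13, and 91.2% of all probe sets had a smaller standard error than any member. With 3 arrays a group, a difference of about 2-fold at Hsp26 could not be told from the spread between replicates.

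**Figure D2:**
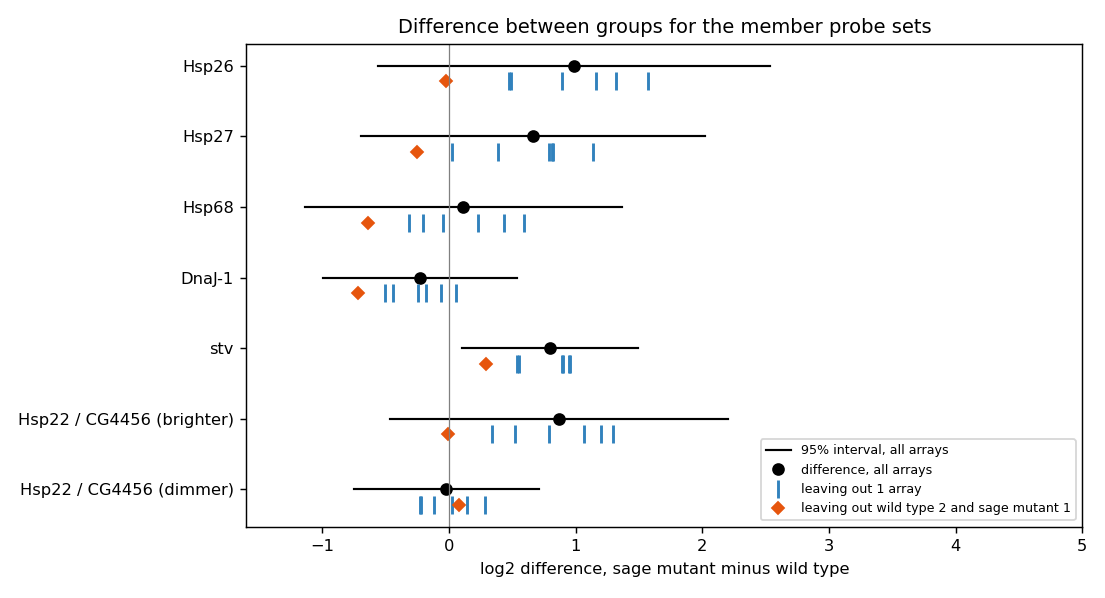
Log2 difference, sage mutant minus wild type, for the 7 member probe sets. Black points with lines are the differences with all arrays and their 95% intervals, blue ticks leave out 1 array at a time, and orange diamonds leave out wild type replicate 2 and mutant replicate 1 together. The interval of stv alone lies above 0, and the diamonds of Hsp26 and the brighter Hsp22/CG4456 probe set lie at −0.02 and −0.01.

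The replicates differed in the same order at most members. Mutant replicate 1 was the highest mutant array at 7 of 7 probe sets, as at 35.1% of all probe sets, and mutant replicate 3 was the lowest at 7 of 7, as at 34.4%. Wild type replicate 2 was the lowest wild type array at 6 of 7, as at 30.8% of all, the exception being the dimmer Hsp22/CG4456 probe set. All these orders held together at 6 of 7 members, and at 2.82% of all probe sets. Among the 6111 probe sets with a mean log2 signal of at least 8, where every member lies, the share was 1.98%. The orders counted were read off the members' own values, so these shares are a description and no test.

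In size, mutant replicate 1 exceeded mutant replicate 3 by 4.69-fold at Hsp27, 4.50-fold at Hsp26, 3.002-fold at Hsp68 and 2.94-fold at the brighter Hsp22/CG4456 probe set. The cochaperones DnaJ-1 and stv had smaller ratios of 2.18 and 1.78. Wild type replicate 3 exceeded wild type replicate 2 by 3.32-fold at the brighter Hsp22/CG4456 probe set, 3.24-fold at Hsp26 and 2.84-fold at Hsp68, but by 1.75-fold at Hsp27. The SD of Hsp26 among the mutants, 1.10, was larger than that of 99.8% of all probe sets, and the SD of Hsp27, 1.15, than that of 99.9%. In wild type, the SDs of Hsp26 and the brighter Hsp22/CG4456 probe set, 0.90 and 0.93, were larger than those of 98.0% and 98.2%. stv, with SDs of 0.42 and 0.45, was above 86.1% and 95.6% of all probe sets in wild type and mutants. Among the probe sets with a mean of at least 8, whose wild type SDs were generally larger (median 0.28 against 0.16 for all), stv was above 74.3% in wild type and 93.6% in the mutants. DnaJ-1 was above 68.8% and 96.4% of these brighter probe sets, and Hsp26 above 96.0% and 99.6%.

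**Figure D3:**
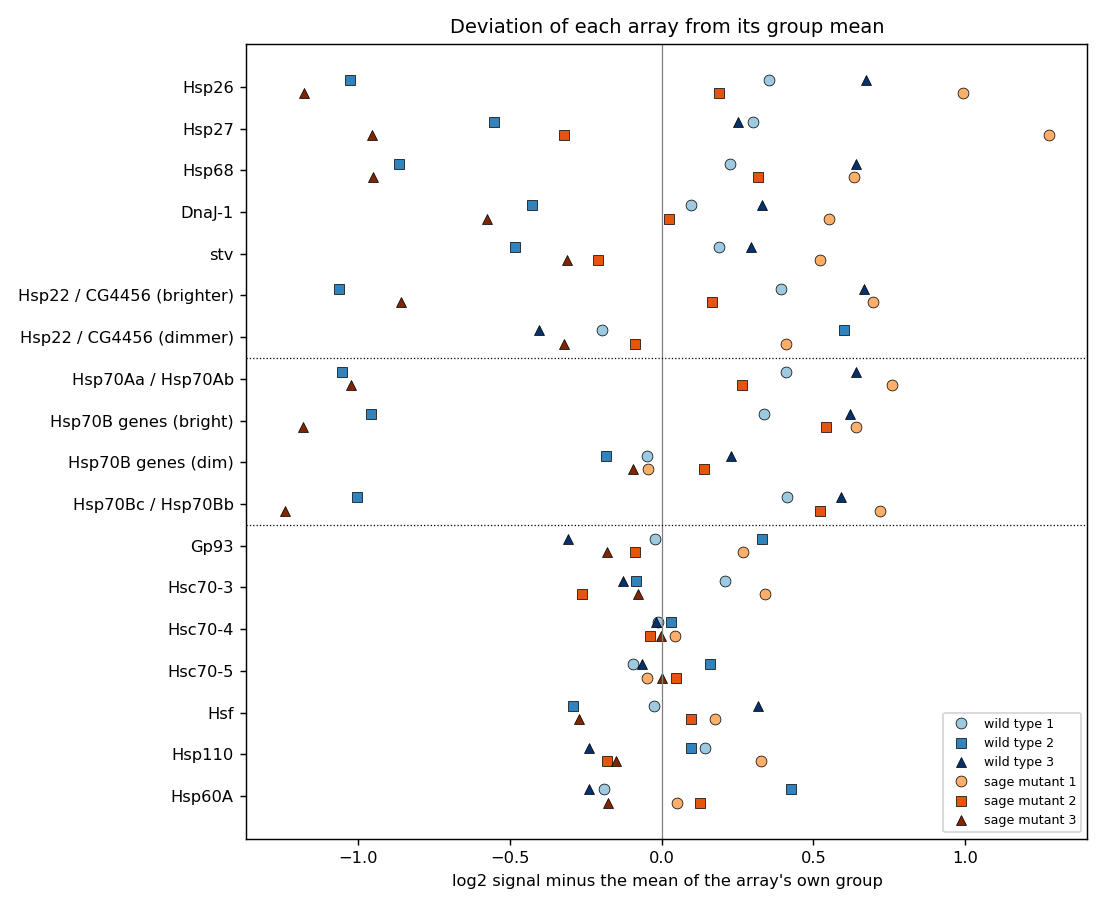
Log2 signal of each array minus the mean of its own group, for the 7 member probe sets (top), 4 probe sets shared among Hsp70 genes (middle) and 7 partner genes including the constitutive Hsp70 relatives (bottom), with symbols for the 6 arrays. Hsp26 spreads over 2.17 among the mutants and Hsc70-4 over 0.08.

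Same-numbered arrays, whose pairing the titles do not state, gave opposite directions. Mutant minus wild type log2 differences for Hsp26 were 1.62 for replicate 1, 2.20 for replicate 2 and −0.87 for replicate 3. Hsp68 gave 0.52, 1.29 and −1.48, and DnaJ-1 gave 0.23, 0.22 and −1.14. stv alone among the probe sets naming 1 gene was higher in the mutant array of each number, by 1.13, 1.07 and 0.19.

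The control 5′ minus 3′ difference moved with these levels. Among the mutants it was −4.35, −3.51 and −3.17 in replicates 1 to 3, the reverse order of Hsp26, Hsp27, Hsp68, DnaJ-1 and stv, whose levels were highest in replicate 1 and lowest in replicate 3. In wild type it was −1.88, −1.76 and −1.89, and replicate 2, with the most 5′ signal, had the lowest levels of the same genes. Once this value was added to the fit as a covariate, the log2 differences between groups were −2.38 (SE 1.21) for Hsp26, −2.94 (SE 0.52) for Hsp27, −2.27 (SE 1.14) for Hsp68, −1.99 (SE 0.54) for DnaJ-1 and −0.69 (SE 0.56) for stv. None passed (limma adjusted p from 0.266 to 0.881). For each probe set that fit has a single slope for both groups, while the control values varied mostly among the mutants (SD 0.61 against 0.08 in wild type). The control values of the groups do not overlap, so the fit extends this slope beyond the range of either group. Group and RNA completeness therefore cannot be told apart by this fit, and the part of RNA completeness in the member levels was not tested.

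**Figure D4:**
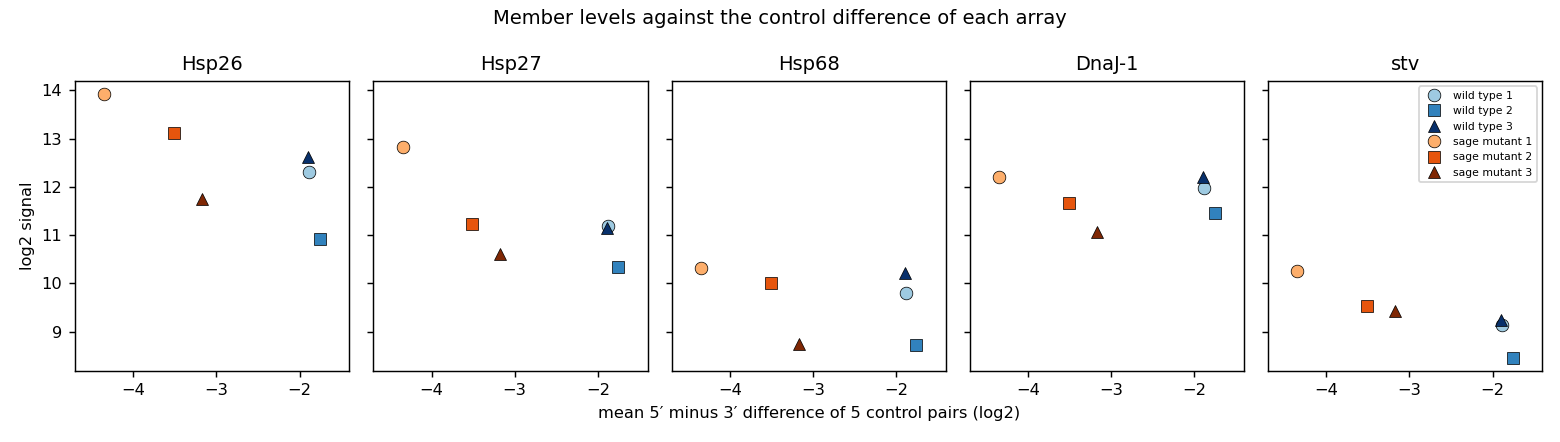
Log2 signal of Hsp26, Hsp27, Hsp68, DnaJ-1 and stv against the 5′ signal minus the 3′ signal averaged over 5 pairs of control probe sets, 1 point per array. Mutant arrays lie between −4.35 and −3.17 and wild type arrays between −1.89 and −1.76, and in each group the array with the most 5′ signal (wild type replicate 2, mutant replicate 3) has the lowest level of all 5 genes.

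Markers of other tissues were read on the same arrays. Of 12 muscle marker probe sets (8 of 13 listed genes measured), 1 rose, Mp20, a calponin-like muscle protein (log2 difference 1.199, SE 0.22, limma adjusted p = 0.0371), and none fell, against 2.1% and 1.93% of all probe sets. In this list 3 of 12 had an unadjusted p under 0.05, against 18.7% of all. A higher mean in the mutants was found at 10 of the 12, against 43.4% of all, and the list's median log2 difference was 0.68. Their mean log2 signal was 8.76 in wild type replicate 2 against 10.06 and 10.08 in the other wild type arrays and 10.03 to 10.46 in the mutants, and their summed linear signal ran from 20548 to 33324 in wild type and from 31351 to 41192 in the mutants. Of 12 probe sets for nervous system and midline glia markers (8 of 10 genes), 1 fell, nrv2, a sodium pump subunit of neurons and glia (log2 difference −1.66, SE 0.14, limma adjusted p = 0.0036), and their summed signal ran from 5181 to 7661 and from 3715 to 5220. Of these, 4 of 12 had an unadjusted p under 0.05, and 9 of 12 had a lower mean in the mutants, as did 10632 of all 18769 probe sets. Among 9 germ line and maternal probe sets (6 of 9 genes) limma called none and 1 had an unadjusted p under 0.05, and their sums ran from 1814 to 2587 and from 1989 to 2320. Mp20 lost its call when any array but wild type replicate 2 and mutant replicate 1 was left out (limma adjusted p from 0.0866 to 0.163). The part of these tissues in the member levels was not tested.

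The Hsp70 genes at 87A and 87C on chromosome arm 3R encode the main heat-inducible chaperone of the fly, and their near-identical copies share probe sets. 4 probe sets named Hsp70 genes alone, and none passed limma or had an unadjusted p under 0.05. The probe set of Hsp70Aa and Hsp70Ab had log2 signals of 11.77, 10.31 and 11.997 on the wild type arrays and 12.75, 12.25 and 10.96 on the mutant arrays. The array order was that of Hsp26. The brighter probe set shared by Hsp70Ba, Hsp70Bb, Hsp70Bbb and Hsp70Bc had 12.17, 10.88 and 12.46 in wild type and 12.37, 12.27 and 10.54 in the mutants, with mutant replicates 1 and 2 almost level. Its log2 difference between groups was −0.11 (SE 0.60, limma adjusted p = 0.954), and that of the Hsp70Aa and Hsp70Ab probe set was 0.63 (SE 0.59, limma adjusted p = 0.664). A dim probe set of the 4 Hsp70B genes lay between 5.12 and 5.61 on all arrays, inside the span of the larval glue genes' group means (4.71 to 5.79).

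The constitutive relatives varied less between replicates than Hsp26 did. Hsc70-4, the abundant cytosolic cognate, had log2 signals of 13.84, 13.88 and 13.83 in wild type and 13.92, 13.84 and 13.87 in the mutants, a range of 0.08 among the mutants. Hsc70-3, the endoplasmic reticulum form known as BiP, ranged over 0.34 in wild type and 0.61 in the mutants. Hsp60A, a mitochondrial chaperonin, ranged over 0.66 and 0.30, and wild type replicate 2 was its highest wild type array. Hsf, the transcription factor of the heat shock response, had 10.85, 10.59 and 11.20 in wild type and 10.91, 10.83 and 10.46 in the mutants (log2 difference −0.15, SE 0.19, limma adjusted p = 0.773). Over the 32 partner probe sets, the joint array order of the members held at 3 (9.38%). No test of the difference in spread between inducible and constitutive genes was made.

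Of the partners, 28 of 41 listed genes were measured by the 32 probe sets naming 1 gene, and 4 probe sets rose and none fell, against 2.1% and 1.93% of all probe sets in those directions. Their median log2 difference was 0.03. Of the 32, 9 had an unadjusted p under 0.05, against 18.7% of all, and 10 had groups that did not overlap, against 24.4%. Hsc70-2, a cognate Hsp70 gene, had log2 signals of 4.90, 4.94 and 5.02 in wild type and 7.28, 6.72 and 7.16 in the mutants, and rose by a log2 difference of 2.10 (SE 0.16, limma adjusted p = 0.00239). Its wild type mean was as low as those of the glue genes, which makes the 4.29-fold change inexact. All 3 mutant arrays were high, mutant replicate 3 included, which was the lowest mutant array at every member probe set.

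l(2)efl encodes a small heat shock protein of the alpha-crystallin family that lies outside the 67B cluster, and 2 of its 3 probe sets rose. The brighter of these 2 had log2 signals of 10.90, 11.09 and 10.90 in wild type and 11.68, 11.73 and 11.70 in the mutants (log2 difference 0.74, SE 0.10, limma adjusted p = 0.0142). The dimmer one rose by 1.70 (SE 0.20, limma adjusted p = 0.01) from a wild type mean of 4.46, below every group mean of the glue genes. The third, the brightest, had 0.48 (SE 0.11, limma adjusted p = 0.0798) and groups that did not overlap. The mutant arrays of the brighter called probe set lay within 0.05 of each other, whereas those of Hsp27 spanned 2.23. CG7409, an alpha-crystallin family gene, had log2 signals of 5.88, 5.88 and 5.77 in wild type and 6.35, 6.97 and 6.97 in the mutants, and rose by 0.92 (SE 0.18, limma adjusted p = 0.0467). It did not pass with replicate number as a block (limma adjusted p = 0.0675) or after quantile normalization (0.0603), and its lowest mutant array was replicate 1, the highest at every member.

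The number of partner probe sets that passed was 1 without wild type replicate 1 or without mutant replicate 3, and 2 without wild type replicate 3 or without mutant replicate 2. Hsc70-2 passed each time (highest limma adjusted p = 0.0241). The brighter called l(2)efl probe set missed the threshold when any array but wild type replicate 2 and mutant replicate 1 was left out (limma adjusted p from 0.0587 to 0.0824). The dimmer called one missed it when wild type replicate 1 or mutant replicate 3 was left out (0.0503 to 0.068). CG7409 passed only without mutant replicate 1 and otherwise had adjusted p-values from 0.0554 to 0.189. In the fit with the 5′ to 3′ covariate, no partner passed limma. Of the 32 partner probe sets, 7 had an unadjusted p under 0.05 there, against 1613 of all 18769. The log2 differences were then 1.72 (SE 0.45) for Hsc70-2, 0.82 (SE 0.30) and 2.40 (SE 0.51) for the 2 called l(2)efl probe sets and 1.95 (SE 0.30) for CG7409, all still above 0 where those of the members were below it.

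The levels of the genes around the members at 67B were read in their order along arm 3L. 9 probe sets of other genes lay inside the cluster or within 5 genes of it. Of these, 2 passed limma, against 4.03% of all probe sets, and 4 had an unadjusted p under 0.05, against 18.7%. Fdx1, which encodes a mitochondrial ferredoxin, fell by a log2 difference of −0.61 (SE 0.11, limma adjusted p = 0.0375), and Cpr67B, a cuticle protein gene, rose by 0.79 (SE 0.12, limma adjusted p = 0.0248). Fdx1 had 8.73, 8.77 and 8.83 in wild type and 7.995, 8.17 and 8.32 in the mutants, so mutant replicate 1 was its lowest array and not its highest. CG4461, an alpha-crystallin family gene beside Hsp26 in the cluster, lay between 5.42 and 5.67 on all arrays (log2 difference −0.05, SE 0.11, limma adjusted p = 0.875). That is inside the span of the larval glue genes' group means (4.71 to 5.79), so its small spread does not show a steady level. Hsp26 next to it spanned more than 2 among the mutants. CG4080 and eIF4E1, the first genes with a probe set beyond Hsp27, had log2 differences of 0.18 (SE 0.17) and 0.11 (SE 0.23). Leaving out any array but wild type replicate 2 ended the call of Fdx1 (limma adjusted p from 0.0636 to 0.141), as did replicate number as a block (0.0525), trend and robust variance (0.106) and a test of the brighter probe sets alone (0.0706). Cpr67B lost its call when any array but wild type replicate 2 and mutant replicate 1 was left out (0.0628 to 0.116).

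**Figure D5:**
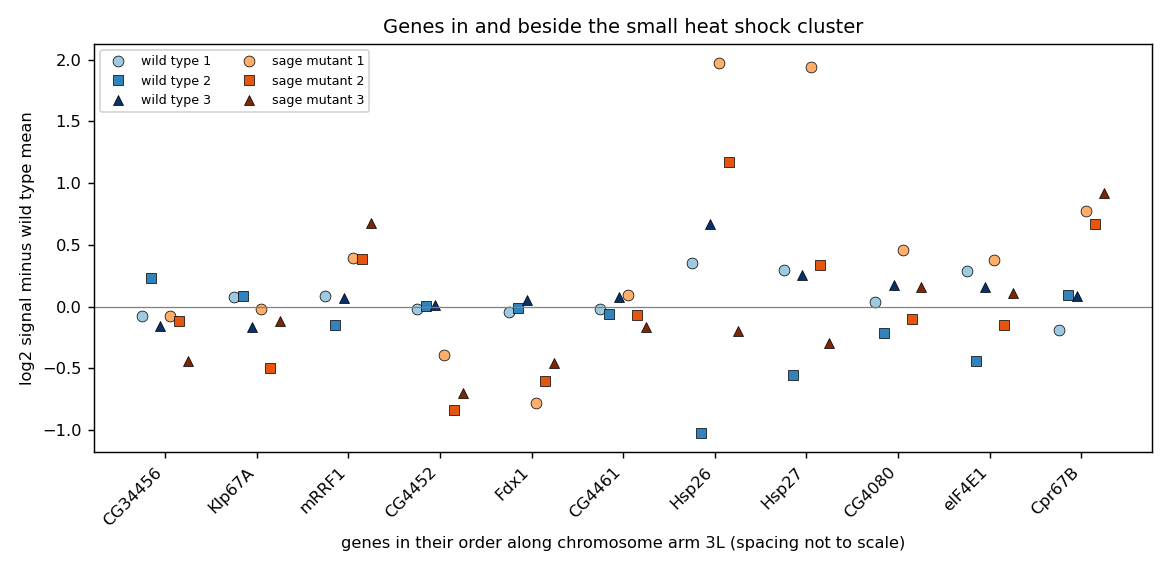
Log2 signal minus the wild type mean for Hsp26, Hsp27 and 9 neighbouring genes, in their order along chromosome arm 3L with spacing not to scale, 1 point per array. Hsp26 and Hsp27 span more than 2 among the mutant arrays, and each of the 9 neighbours spans 0.56 or less among those arrays. The group means of CG34456 and CG4461 lie within the span of those of the larval glue genes.

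Genes of other stress responses gave a further comparison. Of 18 probe sets for 17 of 25 listed genes, 2 rose and none fell, against 2.1% and 1.93% of all probe sets, and their median log2 difference was 0.05. Both encode metallothioneins, small metal-binding proteins. MtnA had log2 signals of 11.75, 12.64 and 12.57 in wild type and 13.54, 13.85 and 13.70 in the mutants, and rose 2.59-fold (log2 difference 1.38, SE 0.25, limma adjusted p = 0.0367). MtnB rose by 1.01 (SE 0.11, limma adjusted p = 0.00852) from a wild type mean of 4.53, below every group mean of the glue genes. Neither had the array order of Hsp26, and the highest mutant array of both was replicate 2. TotE, of the Turandot family of stress-induced secreted proteins, had a log2 difference of −1.28 (SE 0.26, limma adjusted p = 0.051). It passed with replicate number as a block (limma adjusted p = 0.0272), centring on array medians (0.0414), a mean of at least 5 (0.0397), brighter probe sets alone (0.0353), trend and robust variance (0.0181), array weights (0.00958) and without wild type replicate 2 (0.0274). With the 5′ to 3′ covariate its log2 difference was −0.49 (limma adjusted p = 0.949). MtnA missed the threshold when wild type replicate 3 or any 1 mutant array was left out (limma adjusted p from 0.0532 to 0.16). MtnB missed it when mutant replicate 2 was left out (0.0536), and no gene of the list was called then.

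Likeness to the members was ranked by Pearson's correlation over the 6 arrays with the mean of Hsp26 and Hsp27, each centred on its own mean, among 3185 probe sets that named 1 gene and ranged over at least 1 in log2 signal. The 5 genes most like it were Plzf (0.94), Pdk (0.91), spz4 (0.90), PNUTS (0.90) and CG6295 (0.89). Pdk encodes pyruvate dehydrogenase kinase, which restrains entry of pyruvate into the citric acid cycle, spz4 encodes a Spätzle family protein and PNUTS a nuclear regulator of protein phosphatase 1. Pdk had 9.05, 8.31 and 9.22 in wild type and 10.45, 9.64 and 9.46 in the mutants, with groups that did not overlap and a limma adjusted p of 0.178. None of the 5 passed limma. Of the other members, the brighter Hsp22/CG4456 probe set had a correlation of 0.95, stv 0.91, Hsp68 0.85 and DnaJ-1 0.70, and the dimmer Hsp22/CG4456 probe set 0.03. Of the 4 probe sets naming Hsp70 genes alone, that of Hsp70Aa and Hsp70Ab also had 0.95 and that of Hsp70Bb and Hsp70Bc 0.83. The brighter and the dim probe sets of the 4 Hsp70B genes had 0.75 and 0.08. These correlations rest on 6 arrays that include the group difference and the array differences described above, and are given as a description.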

How the data were processed

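RNA from 6 samples of whole embryos, 3 wild type and 3 sage mutant, was labelled with a 3′ in vitro transcription kit, per the labels' protocols. Per probe set and array, the authors deposited a single log2 signal. RMA and Partek are named, with no version, per the submitters' processing notes. The log2 base was read from the tool and the values' range.

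Of 18952 rows, 183 control probe sets were left out. Genes were named from the platform's annotation, with symbols updated through RefSeq (assembly Release 6 plus ISO1 MT). 13646 probe sets named 1 gene, 402 several and 4721 none. Members and lists were chosen with earlier results of these data known. Probe sets naming several genes were used only for Hsp22 and Hsp70, and neighbours and Hsp70 were added after their values were seen. The profile used for likeness was planned from Hsp22, Hsp23, Hsp26 and Hsp27 and computed from the pair with a probe set of their own. Named list genes are those past the threshold, and others chosen after their values were seen. The latter are Hsc70-1, Hsc70-3, Hsc70-4, Hsp60A, Hsf, CG4461, TotE, Ddc, Osi7, bt and sls.

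limma 3.58.1 in R 4.3.3 was fitted to all 18769 probe sets (lmFit, eBayes, group as the only term, Benjamini-Hochberg adjustment, threshold 0.05), after a test on simulated data. Whether the replicates are separate embryo collections is not stated, so the p-values reflect only how far these samples differ, possibly for technical reasons. The titles number the replicates alike in both groups. Deviations from group means correlated at 0.17, 0.28 and 0.31 across probe sets for same-numbered arrays, and at −0.30 to 0.14 for differently numbered ones. These values are not independent of each other, because the deviations of a group's arrays from its mean cancel. The titles state no pairing, so taking the numbers as pairs is an assumption from these values. On that assumption the unpaired fit was repeated with a replicate block. Over the 7 member probe sets alone the correlations of same-numbered arrays were 0.64, −0.49 and −0.73. Scan dates were not analysed here.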

Additional observations from a re-analysis of the deposited data

How the results depend on the processing

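No member probe set passed limma under any of the 16 alternatives, replicate block included, with 0 to 2 at an unadjusted p under 0.05. The members' median log2 difference, 0.66, was 0.18 with array weights, −1.99 with the 5′ minus 3′ covariate and 0.025 to 0.95 without 1 array. Signs of uncalled differences did change. With that covariate they were −2.38 for Hsp26, −2.94 for Hsp27, −2.27 for Hsp68, −0.69 for stv and −1.63 for the brighter Hsp22/CG4456 probe set. Without wild type replicate 2 and mutant replicate 1 together, a setting chosen after seeing the data, they were −0.023 for Hsp26, −0.25 for Hsp27, −0.64 for Hsp68, and −0.0097 and 0.0748 for the brighter and dimmer Hsp22/CG4456 probe sets. With array weights Hsp68 had −0.39 and the dimmer Hsp22/CG4456 probe set 0.0947. Leaving out 1 array gave −0.32 to 0.59 for Hsp68 (−0.20 and −0.05 without mutant replicates 1 and 2), −0.51 to 0.0575 for DnaJ-1, and −0.23 to 0.28 for the dimmer Hsp22/CG4456 probe set (0.02 and 0.14 without mutant replicates 2 and 3).

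Over all probe sets 757 passed, against 641 with the replicate block, 2737 with array weights, 3097 without that pair of arrays, 134 to 1111 without 1 array, and 0 with the covariate, where 1613 had an unadjusted p under 0.05. Of those 757, 394 were higher and 363 lower in the mutants, against 334 and 465 after centring on array medians. Leaving out wild type replicate 1 or 3 gave 212 and 276, and mutant replicate 2 or 3 gave 135 and 134. Of the partners 4 passed, against 3 with the replicate block, 9 with array weights, 7 without that pair, 2 with the brightest probe set of each gene (fewer probe sets tested), 1 to 4 without 1 array and 0 with the covariate. Of the other stress genes 2 passed, against 3 with the replicate block, 4 with array weights, 6 without that pair, 0 to 3 without 1 array and 0 with the covariate (3 at an unadjusted p under 0.05). The replicate block changed the calls of CG7409, Fdx1 and TotE and of no other member, called list gene or called neighbour. It was not read for sage or the genes most like Hsp26 and Hsp27. The causes were not tested. The number of arrays limits the precision.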
